A study of Mus musculus with 9 samples.

Results

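The 8 genes described here write, copy and remove DNA methylation: the methyltransferases Dnmt1, Dnmt3a and Dnmt3b, the cofactor Dnmt3l, the adaptor Uhrf1, and the dioxygenases Tet1, Tet2 and Tet3. They were chosen by name, and all 8 were found once among the 32285 genes in the files. RNA from whole testes of 9 mice at postnatal day (PND) 24 was counted by single-cell RNA-seq (10x Genomics 3′ chemistry), 1 library per mouse. Of these 4 were control mice, 2 lacked NELF-B in germ cells (NELF-B cKO) and 3 lacked TDP-43 (TDP-43 cKO), all labelled C57BL/6. The cKO mice carried the Stra8-iCre transgene, whose recombinase acts in spermatogonia from early postnatal life, with 1 floxed and 1 null allele of either Nelfb, a subunit of the negative elongation factor that pauses RNA polymerase II, or Tardbp, the gene of the DNA- and RNA-binding protein TDP-43. The floxed parts are exons 1 to 4 of Nelfb and exon 3 of Tardbp. The controls were littermates or non-littermates, and the labels give no alleles for them. Recombination takes place in germ cells, and some germ cells escape it. The study's methods state that germ cells expressing the targeted gene were removed from the cKO samples. Here germ cells of cKO mice with any read of that gene were left out. A 3′ read of Tardbp does not show whether exon 3 was present, so recombined cells may have been left out too.

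DNA methylation at CpG dinucleotides is copied after replication by DNMT1, which UHRF1 brings to hemimethylated sites, whereas DNMT3A and DNMT3B place new methyl groups with the help of the catalytically inactive DNMT3L. TET1, TET2 and TET3 oxidise methylcytosine, the first step of its active or passive removal. In the male germ line most methylation is laid down before birth, and these enzymes are known to act again in postnatal spermatogonia and at the entry to meiosis.

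Cells were grouped into 25 clusters built without the 8 genes and without their pathway partners, and 19 clusters were named from marker genes. Spermatogonia (SG; undifferentiated and differentiating), preleptotene, leptotene and zygotene spermatocytes (pL, L and Z SC), pachytene (P) and diplotene (D) SC, round spermatids (RS), Sertoli, Leydig, interstitial, immune, myoid and endothelial cells were found. A name required at least 3 markers of the type at least 2-fold above the other cells, which is a condition of the name and no check on it. Libraries held 119203347 to 159407373 unique molecular identifiers (UMIs, each a counted RNA molecule). Of 45132 barcodes past the filter 28619 had a cell type, and 25259 remained once 232 NELF-B cKO and 3128 TDP-43 cKO germ cells with a read of the targeted gene had been left out. No control cell was left out. In TDP-43 cKO mice this step took SG from 2678 to 1148 and pL, L and Z SC from 2690 to 1456 cells. Their P SC went from 363 to 87. A cell with more UMIs is likelier to hold such a read. The part of this step in depth and stage makeup was not tested. Before that step Nelfb in SG stood at 5.07 and 6.12 CPM (counts scaled to 1e6 UMIs) in the NELF-B cKO mice against 63.0 to 76.6 in controls. Tardbp in SG stood at 31.1 to 35.5 CPM in the TDP-43 cKO mice against 63.7 to 70.5 in controls. Among the barcodes 260 sequences were found in more than 1 library. Levels are CPM over the summed cells of one type in one mouse. A 3′ UMI counts 1 molecule whatever its length, so levels are not scaled by gene length.

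All 8 genes lie on assembled chromosomes (GRCm38, GENCODE M21). Dnmt1 (ENSMUSG00000004099) spans 20907209 to 20959888 on the minus strand of chromosome 9. Uhrf1 (ENSMUSG00000001228) spans 56303321 to 56323486 on the plus strand of chromosome 17. Dnmt3a (ENSMUSG00000020661) lies at 3806007 to 3914443 of chromosome 12 (plus). Dnmt3b (ENSMUSG00000027478) lies at 153649450 to 153687730 of chromosome 2 (plus), and Dnmt3l (ENSMUSG00000000730) at 78041947 to 78063622 of chromosome 10 (plus). Tet1 (ENSMUSG00000047146) occupies 62804570 to 62908996 of chromosome 10 (minus). Tet2 (ENSMUSG00000040943) occupies 133463679 to 133545139 of chromosome 3 (minus), and Tet3 (ENSMUSG00000034832) 83362373 to 83459084 of chromosome 6 (minus). A UMI counts every transcript of a gene with the same end, so these data do not show which start site was used.

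The promoters of the maintenance pair Dnmt1 and Uhrf1 are shown because both genes have the highest levels in SG, cells that divide and replicate their DNA. Windows run from 250 bases before to 50 after a RefSeq start (GRCm38.p6), and 15 windows of the 8 genes were searched on both strands for TTTNNCGC, the core of the motif bound by E2F factors, which act on S-phase genes. The motif was in 3 of the 15 windows, all of Dnmt1 or Uhrf1, and in 5.169% of the 32851 windows of all genes. The Dnmt1 windows at the starts of Dnmt1-202 and Dnmt1-201 held none. Dnmt3b, Tet1 and Tet3 also had their highest mean levels in SG, and their windows held none. Of the DNA replication genes listed for comparison, 8 of 12 with a window held the motif in at least 1 window. That counts genes and not windows, and CpG content was not matched. The Dnmt1 window with the motif lies at the start of the transcript Dnmt1-203, chr9:20952574-20952873 on the minus strand, and its matches, 2 of which overlap, begin 219 and 217 bases before and 33 bases after the start. The Uhrf1 windows lie at chr17:56303087-56303386 and chr17:56304063-56304362 on the plus strand, with 1 match each. Matched bases are in capitals, and a match is a description of letters, not a bound site.
Dnmt1: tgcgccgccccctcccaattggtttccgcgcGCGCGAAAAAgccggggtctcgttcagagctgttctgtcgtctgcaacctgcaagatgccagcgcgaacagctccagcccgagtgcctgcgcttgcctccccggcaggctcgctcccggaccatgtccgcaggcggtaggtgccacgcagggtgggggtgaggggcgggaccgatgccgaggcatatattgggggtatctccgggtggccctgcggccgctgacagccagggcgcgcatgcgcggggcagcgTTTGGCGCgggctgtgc
Uhrf1, first window: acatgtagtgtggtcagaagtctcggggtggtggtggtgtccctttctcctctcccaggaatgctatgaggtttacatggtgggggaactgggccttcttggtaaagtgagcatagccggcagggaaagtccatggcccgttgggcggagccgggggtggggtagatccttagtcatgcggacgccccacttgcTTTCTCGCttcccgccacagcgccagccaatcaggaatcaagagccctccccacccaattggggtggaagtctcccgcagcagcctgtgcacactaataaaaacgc
Uhrf1, second window: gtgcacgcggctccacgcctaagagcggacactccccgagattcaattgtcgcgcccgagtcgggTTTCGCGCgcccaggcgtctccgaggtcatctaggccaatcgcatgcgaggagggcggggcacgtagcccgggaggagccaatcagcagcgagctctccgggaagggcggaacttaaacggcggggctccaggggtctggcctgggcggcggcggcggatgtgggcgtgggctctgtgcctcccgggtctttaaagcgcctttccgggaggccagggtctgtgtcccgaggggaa

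The 3 Dnmt3l promoters are shown because Dnmt3l alone of the 8 had its highest level after meiosis. CpG dinucleotides, the sites that DNA methyltransferases modify, are in capitals. The windows hold 6, 4 and 3 CpGs, against a median of 7 over all windows. The printed Dnmt1 window holds 33, but the Dnmt1 windows at the starts of Dnmt1-202 and Dnmt1-201 hold 2 and 12. They lie on the plus strand at chr10:78042037-78042336 (start of Dnmt3l-205), chr10:78049592-78049891 (Dnmt3l-201) and chr10:78055085-78055384 (Dnmt3l-202, Dnmt3l-203 and Dnmt3l-206).
Dnmt3l, first window: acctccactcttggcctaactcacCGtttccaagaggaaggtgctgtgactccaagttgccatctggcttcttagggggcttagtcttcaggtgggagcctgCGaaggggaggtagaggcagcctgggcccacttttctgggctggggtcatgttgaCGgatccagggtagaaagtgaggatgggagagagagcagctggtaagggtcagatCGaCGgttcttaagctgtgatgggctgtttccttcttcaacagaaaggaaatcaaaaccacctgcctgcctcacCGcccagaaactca
Dnmt3l, second window: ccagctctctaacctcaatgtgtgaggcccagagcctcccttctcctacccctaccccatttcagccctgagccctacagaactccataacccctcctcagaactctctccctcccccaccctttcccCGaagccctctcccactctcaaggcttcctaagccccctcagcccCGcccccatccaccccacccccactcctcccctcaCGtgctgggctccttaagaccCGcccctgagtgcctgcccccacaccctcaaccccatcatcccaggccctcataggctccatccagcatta
Dnmt3l, last window: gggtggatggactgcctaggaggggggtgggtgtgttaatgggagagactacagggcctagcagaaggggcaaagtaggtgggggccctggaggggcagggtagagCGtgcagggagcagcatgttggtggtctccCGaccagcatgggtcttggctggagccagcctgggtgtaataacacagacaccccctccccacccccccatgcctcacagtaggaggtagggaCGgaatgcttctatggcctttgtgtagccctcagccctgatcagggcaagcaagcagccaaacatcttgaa

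The levels of the 8 genes by stage in control mice asked when in spermatogenesis each enzyme's RNA is present. Dnmt1, the maintenance methyltransferase, was highest in SG, at 175, 209, 197 and 201 CPM in control mice 1 to 4 (196 ± 14.5, SD, n = 4). Within SG it stood at 107 to 161 CPM in undifferentiated and at 206 to 236 CPM in differentiating cells, and the ranges did not overlap. It was still 165 to 203 CPM in pL SC, 84.1 to 111 in the cluster of pL and L SC, and 17.1 to 19.6 in L and Z SC. Every control mouse thus lost most Dnmt1 RNA between preleptotene, the last premeiotic S phase, and zygotene. P SC then held 28.7 to 32.9 CPM, D SC 12.1 to 14.2 and RS 5.09 to 6.13. Free RNA was read from the barcodes with 1 to 100 UMIs, where Dnmt1 stood at 23.5 to 52.2 CPM in the control libraries, and no sum of L and Z SC or of a later stage lay above that range.

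Uhrf1, the adaptor that recruits DNMT1, was also highest in SG, at 102, 115, 96.1 and 101 CPM (103 ± 7.80, n = 4), and again higher in differentiating (112 to 131) than in undifferentiated SG (59.99 to 76.997). Its later course differed from that of Dnmt1. It stood at 70.8 to 94.1 CPM in pL SC, 42.8 to 65.1 in pL and L SC, and 62.1 to 80.9 in L and Z SC. In P SC the level was 62.9 to 75.0 CPM, in D SC 45.1 to 55.2, and in RS 15.4 to 27.6. P SC of all 4 mice had more than 1 Uhrf1 UMI per Dnmt1 UMI (6611 against 3061 UMIs in all). Free RNA held 27.6 to 60.5 CPM of Uhrf1, below its level in each sum of pL, of L and Z and of P SC. The range for pL and L SC overlapped it, and those of D SC and of the shallow of 2 P SC clusters (28.9 to 51.6 CPM) lay within it.

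The de novo methyltransferases Dnmt3a and Dnmt3b had like levels in SG, 72.0, 82.4, 74.7 and 82.0 CPM for Dnmt3a (77.8 ± 5.21, n = 4) and 85.0, 82.5, 78.4 and 69.7 CPM for Dnmt3b (78.9 ± 6.68). They parted at the entry to meiosis. Dnmt3b fell to 15.1 to 22.8 CPM in pL SC and 2.14 to 3.44 in pL and L SC. Dnmt3a kept 71.1 to 94.6 CPM in pL SC, overlapping its range in differentiating SG (76.2 to 91.2), and still had 24.9 to 36.5 CPM in L and Z SC. From P SC on Dnmt3a was at 0.941 to 4.24 CPM, under the 9.53 to 20.8 CPM of free RNA. Dnmt3b was at 1.09 to 8.49 CPM, overlapping the 5.77 to 12.2 CPM of free RNA. Dnmt3b was 44.7 to 51.2 CPM in undifferentiated and 85.1 to 103 in differentiating SG, which did not overlap.

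Dnmt3l, the cofactor without catalytic activity, had a pattern opposite to the other methyltransferases. RS held 21.1, 20.7, 21.5 and 24.2 CPM (21.9 ± 1.59, n = 4), and D SC, the germ cell stage before RS, 1.25, 2.47, 1.76 and 1.35 CPM. No mouse's RS overlapped any other cell type with values in all 4 control mice, of which undifferentiated SG (2.20 to 5.65 CPM) and interstitial cells (2.26 to 5.04) came nearest. RS held 798 Dnmt3l UMIs in 1827 cells, of which 23.5% had at least 1 at a median of 3756 UMIs per cell. In P SC, at a median of 13237 UMIs, 1.41% of cells had one. With each cell thinned to 2000 UMIs, which left out 296 RS, 191 P SC and 5 D SC, the shares were 3.66% in RS, 0.265% in P SC and 0.142% in D SC. In RS Dnmt3l made up 67.7% ± 1.87 (SD, n = 4) of the UMIs of the 4 DNMT genes. In undifferentiated SG it stood at 5.65, 3.91, 2.99 and 2.20 CPM, and free RNA held 4.48 to 8.53 CPM.

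Tet3 made up most TET UMIs of SG (79.3% ± 4.95, SD, n = 4). SG held 105, 129, 110 and 107 CPM (113 ± 11.3, n = 4), pL SC 92.3 to 126, pL and L SC 29.6 to 50.7 and L and Z SC 8.67 to 14.4. From P SC on it was at 0.312 to 2.79 CPM, below its 7.52 to 19.5 CPM in free RNA. Tet2, by contrast, had its highest levels in somatic cells. Immune cells held 44.6, 67.1, 86.6 and 73.2 CPM (67.9 ± 17.5), interstitial cells 24.2 to 38.4, Sertoli cells 10.7 to 29.1 and Leydig cells 18.0 to 21.03. SG held 1.54 to 8.79 CPM, and P SC, D SC and RS 0.0588 to 0.707 CPM.

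**Figure D1:**
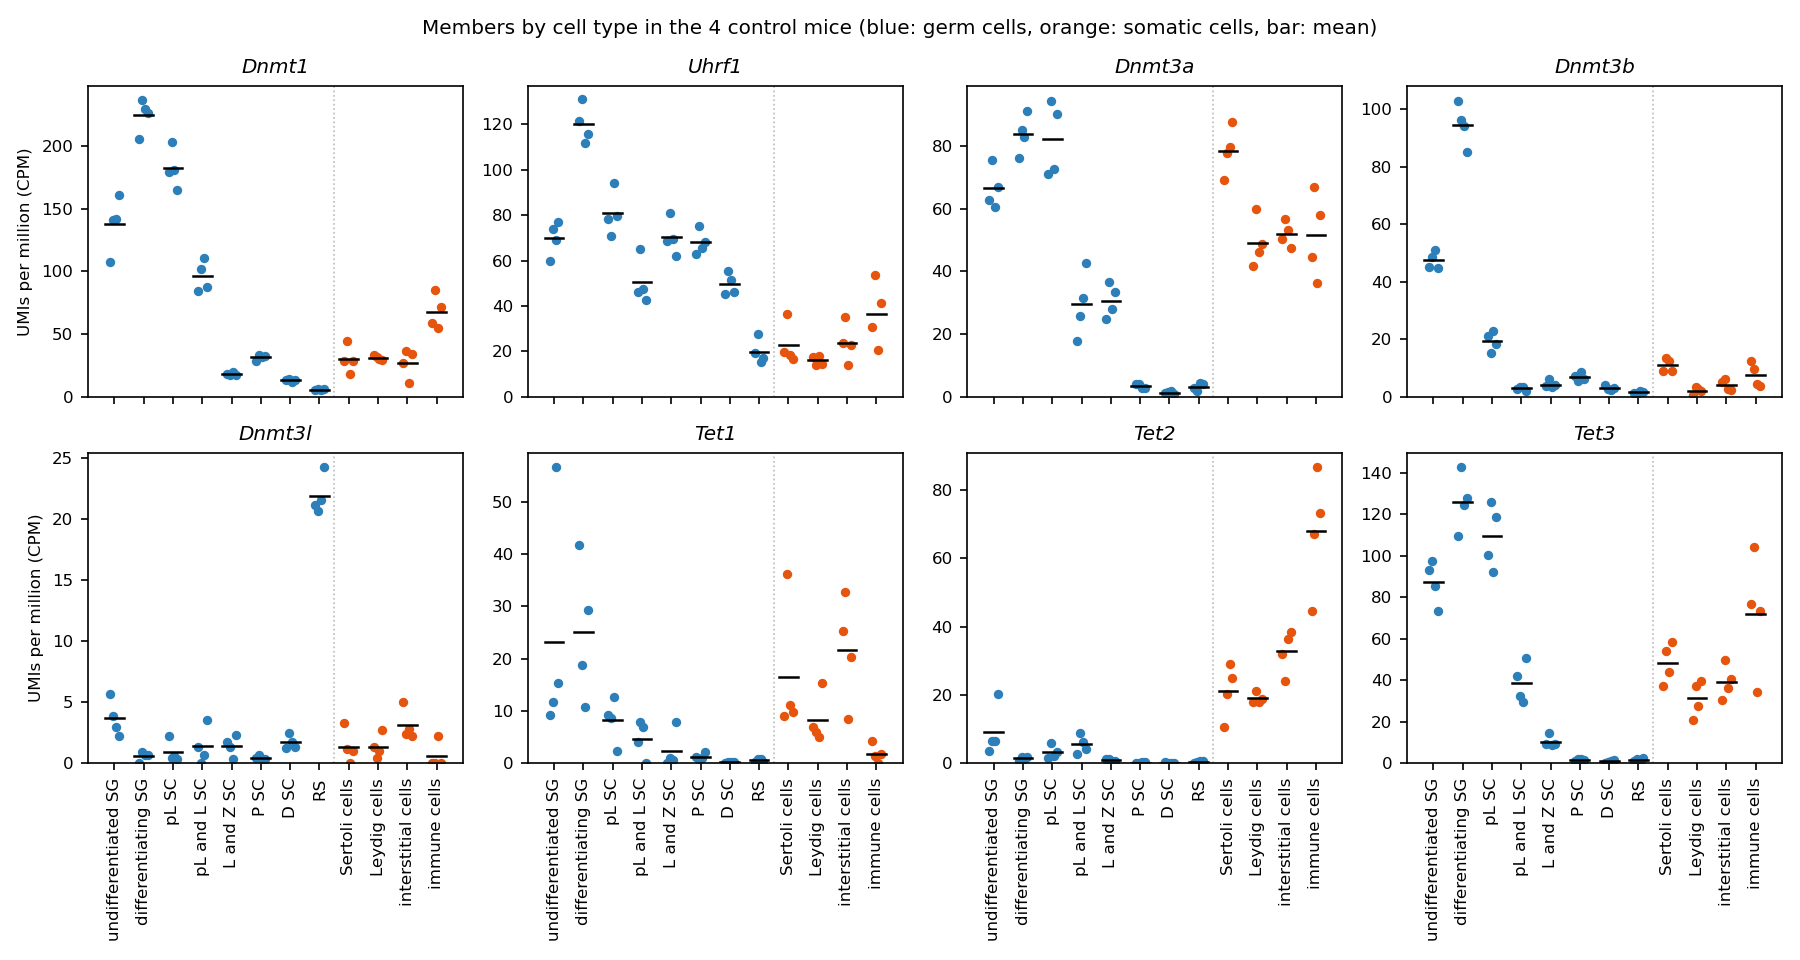
Level (CPM, y axis, linear, a scale of its own for each gene) of the 8 genes in 8 germ cell groups (blue) and 4 somatic cell types (orange) of the control mice. Points are the 4 mice and bars their means. Dnmt1 drops between pL SC (165 to 203) and L and Z SC (17.1 to 19.6), Dnmt3l is high only in RS (20.7 to 24.2) among the groups drawn, and Tet2 is highest in immune cells (44.6 to 86.6).

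Ordered by mean level in control mice, Dnmt1 ran SG, pL to Z SC, immune, P SC, Leydig, Sertoli, interstitial, D SC and RS. Neighbours overlapped except at SG to pL to Z SC, immune cells to P SC and D SC to RS. For Dnmt3a Sertoli cells (69.1 to 87.7 CPM) and SG were first and overlapped, followed by interstitial, immune, pL to Z SC and Leydig cells, all at means of 49.1 to 52.0 CPM. Dnmt3b in Sertoli cells was 9.02 to 13.3 CPM, at the level of pL to Z SC. The rodent gene Dnmt3c, which arose as a copy of Dnmt3b, had its highest level in Sertoli cells (8.23 to 12.5 CPM). How far reads of the near copies were shared between Dnmt3b and Dnmt3c was not tested. Tet3 in immune (34.2 to 104), Sertoli (37.0 to 58.7), interstitial (30.3 to 49.6) and Leydig cells (20.9 to 39.8) overlapped throughout. Uhrf1 was at 16.0 to 36.5 CPM on average in the 4 somatic types. Endothelial cells had enough cells in only 1 control mouse and myoid cells in 2, and their levels were not compared here.

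Changes between successive stage groups, with pL, L and Z SC pooled, were tested with edgeR's quasi-likelihood test. Mouse was a block, p-values were Benjamini-Hochberg adjusted over all genes, and a gene was called at adjusted p under 0.05. From SG to pL, L and Z SC 6 of the 8 genes were called, all lower, where 57.0% of all genes tested were called. The log2 fold changes were -2.87 (SE 0.17, adjusted p = 3.93e-12) for Dnmt3b, -2.12 (SE 0.37, 3.81e-05) for Tet1, -0.98 (SE 0.18) for Tet3, -0.95 (SE 0.14) for Dnmt1, -0.53 (SE 0.15) for Dnmt3a and -0.44 (SE 0.12) for Uhrf1. Dnmt3l (-0.23, SE 0.41) and Tet2 (-0.59, SE 0.37) were not called. With calls so common among all genes, the counts say little about these 8 genes as a set, and the sizes carry the description.

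From pL, L and Z SC to P SC 7 of the 8 were called, with 69.7% of all genes called. Tet3 fell by 4.53 on the log2 scale (SE 0.23, adjusted p = 5.63e-14) and Dnmt3a fell by 3.56 (SE 0.17, 2.84e-14). Smaller falls were found for Tet2 (-3.00, SE 0.44), Tet1 (-1.66, SE 0.40), Dnmt1 (-1.22, SE 0.14) and Dnmt3l (-1.15, SE 0.43, adjusted p = 0.0203). The last was lost without control mouse 1 (-0.83) or control mouse 4 (-0.65). Uhrf1 was +0.30 (SE 0.12, adjusted p = 0.0301), and -0.08 when libraries were scaled by total UMIs, a scaling that moved the median of all genes by -0.37. Relative to that median Uhrf1 was +0.48 and +0.47 in the respective scalings. Its call was lost without control mouse 4 (+0.25, adjusted p = 0.146), with DESeq2 (+0.14, adjusted p = 0.235), with RLE factors (+0.14, adjusted p = 0.285), without the mouse block (+0.30, adjusted p = 0.141) and with a finer clustering (+0.20, adjusted p = 0.0784), and the value was +0.47 without control mouse 1. Dnmt3b (-0.20, SE 0.17) was not called. The earlier group pools pL SC with L and Z SC. Dnmt1 in P SC lay above its level in L and Z SC in every control mouse, both within or under the range of free RNA. Its fall is thus against the pool and not against L and Z SC.

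Between P and D SC 5 genes were called, where 56.7% of all genes were. Dnmt3l rose by 2.49 (SE 0.37, adjusted p = 3.49e-06), although only to the low level given above. Tet1 (-1.65, SE 0.56), Dnmt3a (-0.82, SE 0.23), Dnmt1 (-0.73, SE 0.15) and Dnmt3b (-0.66, SE 0.18) fell. The calls of Tet1 and Dnmt3b were lost without 1 mouse, control 4 for Tet1 (-1.22) and control 3 for Dnmt3b (-0.44). Tet1 rested on 130 UMIs in P SC, 48 of them in 1 cell, and on 19 in D SC. Its level in P SC (0.819 to 2.08 CPM) lay within that of free RNA (0.752 to 3.52). Uhrf1 was +0.05 (SE 0.12) and not called, and -0.46 (adjusted p = 0.00197) with total UMIs. From D SC to RS 5 genes were called, with 78.0% of all genes called. Dnmt3l rose by 3.33 (SE 0.31, adjusted p = 1.24e-09) and Dnmt3a by 1.05 (SE 0.25), the latter within levels under free RNA. Uhrf1 (-1.65, SE 0.13), Dnmt1 (-1.50, SE 0.18) and Dnmt3b (-1.23, SE 0.24) fell.

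Stages differ in RNA content, and the scaling factor matters for such contrasts. Total UMIs in place of trimmed-mean (TMM) factors moved the median log2 fold change of all genes by -0.50 for D against P SC, by -0.37 for P SC against pL to Z SC, by +0.30 for RS against D SC and by -0.19 for Sertoli cells against SG. Uhrf1 was the one gene of the 8 to change sign with a call in either scaling, and relative to the median of all genes it stood at +0.16 in both for D against P SC.

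Sertoli cells, the somatic cells of the tubule that nurse the germ cells, were set against SG. Of the 8 genes 5 were called, with 66.4% of all genes called. Tet2 was higher in Sertoli cells (+2.60, SE 0.35, adjusted p = 6.97e-07). Dnmt3b (-2.60, SE 0.18), Dnmt1 (-2.49, SE 0.16), Uhrf1 (-1.97, SE 0.14) and Tet3 (-1.02, SE 0.20) were lower. Dnmt3a differed by +0.22 (SE 0.15, 95% interval -0.10 to 0.53) and was not called. Tet1 (-0.35, SE 0.37) was not called either, but was lower in Sertoli cells without control mouse 2 (-1.24, adjusted p = 0.00175). Sertoli cells of control mice were shallow, with a median of 2457 UMIs per cell against 20903.5 in SG, and with cells of at least 5000 UMIs alone Dnmt3a was called higher (+0.38, adjusted p = 0.0130).

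The partners of the 8 genes were taken from lists chosen by function, and their counts of called genes stand against 57.0% of all genes called from SG to pL, L and Z SC and 69.7% from there to P SC. Of 8 maintenance partners 2 rose and 2 fell at the first step, while 2 rose and 6 fell at the second. Baz2a (+0.97) and Uhrf2, a relative of Uhrf1 (+0.88), rose and Cdca7l (-2.37) and Cdca7 (-1.86) fell first. At the second step Hells, the helicase needed for methylation of heterochromatin (-2.94), and its cofactor Cdca7 (-3.39) fell, and Baz2a (+0.60) and Pcna, the sliding clamp of replication (+0.59), rose. Of 14 DNA replication genes 3 rose and 9 fell at the first step and 1 rose and 10 fell at the second, with medians of -0.56 and -2.38 against 0.02 and -0.18 over all genes. Gins2 (+0.77), Rrm2 (+0.68), Cdt1 (-1.57) and Mcm2 (-1.48) led the first step, and Mcm7 (+0.41), Tyms (-4.37) and Mcm2 (-3.96) the second. The summed level of these 14 genes fell largely within the pool from which the second step starts. In control mice it was 1409 to 1516 CPM in pL SC, 644 to 677 in L and Z SC and 476 to 536 in P SC. In Sertoli cells all 14 were lower than in SG, where 66.4% of all genes were called. Of 14 tested de novo guides and partners 7 rose and 6 fell at the first step. Ctcfl, the germ cell paralogue of CTCF (+2.14), and Setdb1, a histone H3 lysine methyltransferase (+0.84), rose, whereas Piwil4, the nuclear PIWI protein that guides methylation to transposons, fell by 4.61 and Morc1, which silences transposons in germ cells, fell by 2.54. At the second step 4 rose and 5 fell, led by Mael (+1.55) and Piwil2 (+0.87), both of the piRNA pathway, and by Ctcfl (-6.90) and Tex15 (-4.66).

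Genes of demethylation and base excision repair numbered 16 tested, of which 1 rose and 7 fell at the first step and 3 rose and 9 fell at the second. Dppa3, which protects methylation in the egg and early embryo, fell by 4.91 from SG to pL, L and Z SC, Cxxc4 fell too, and Lig3, a DNA ligase of repair, rose by 0.63. From there to P SC Gadd45a fell by 4.61, Ung, a uracil glycosylase, fell by 3.38, Xrcc1, a scaffold of repair, rose by 1.58 and Smug1, another glycosylase, rose by 0.74. Of 7 methyl-CpG readers 2 rose and 2 fell at the first step (Zbtb4 +0.98, Mbd3 +0.26, Zbtb33 -1.62, Mbd2 -0.25) and 2 rose and 3 fell at the second (Mbd3 +1.32 and Mbd1 +0.92 among those that rose, Zbtb33 -3.92 among those that fell). Of 6 tested genes of methyl donor supply 1 rose and 4 fell at the first step, and 3 fell at the second. Mat2a (+0.71), Mat2b (-0.99) and Ahcy (-0.77) led the first step, and Mat2b (-1.04) and Mat2a (-0.49) were among those that fell at the second. All these counts lie near or under the shares over all genes, apart from 8 of 8 maintenance partners at the second step, 12 of 14 and 11 of 14 replication genes, 13 of 14 guides at the first step, 12 of 16 repair genes at the second and 5 of 6 donor genes at the first.

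For each of the 8 genes the 3 genes of most similar pattern were sought by Pearson correlation of log2(CPM + 1) over 10 cell-type means of the control mice, which share libraries and depth. These means include myoid cells, which rest on 2 mice. The search held 13889 other genes with at least 20 CPM in some type. The nearest were Timm50 for Dnmt1 (r = 0.981), Smarce1 for Uhrf1 (0.973), Pcmtd1 for Dnmt3a (0.994), Poldip3 for Dnmt3b (0.957), 4930486I03Rik for Dnmt3l (0.963), Kcnd3 for Tet1 (0.969), Sat1 for Tet2 (0.994) and E2f3 for Tet3 (0.989). Next came Rfc5 and Tatdn2 for Dnmt1, Zfp287 and Kctd18 for Uhrf1, Mafg and Ubtf for Dnmt3a, and Pgpep1l and Fsd1 for Dnmt3b. For Dnmt3l these were Gm36618 and Spem1, for Tet1 Tacc2 and 9630014M24Rik, for Tet2 Nfkbia and Rgs2, and for Tet3 5530601H04Rik and Hcfc1. These are descriptions over few points, with no test.

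Tet1, the dioxygenase best known from embryonic stem cells and primordial germ cells, was unevenly spread among SG. Its level in SG of control mice 1 to 4 was 31.6, 16.8, 27.5 and 24.0 CPM (24.996 ± 6.28, n = 4). The pL, L and Z SC held 4.42 to 6.87 CPM and P SC 0.819 to 2.08, while interstitial cells (8.42 to 32.7 CPM, 54 UMIs) and Sertoli cells (9.05 to 36.2) overlapped SG. Most SG held none. Of 1304 control SG 14.4% had a Tet1 UMI, against 76.5% for Tet3, yet 1 cell held 125 Tet1 UMIs. The 13 control SG with the most Tet1, 1% of the cells, held 53.6% of its UMIs, against 5.46% to 8.27% for Dnmt1, Uhrf1, Dnmt3a, Dnmt3b and Tet3. For Tet2 (30.6%) and Dnmt3l (46.0%) the share rests on 134 and 50 UMIs with at most 7 and 4 in a cell.

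Over all 9 mice 78 cells with a cell type held at least 10 Tet1 UMIs, a limit set after the levels had been seen, and 66 of them (84.6%) were SG. Of these 48 were differentiating and 18 undifferentiated SG. Such SG were found in every mouse, numbering 1, 5, 4 and 5 in control mice 1 to 4, 9 and 7 in those lacking NELF-B and 7, 15 and 13 in those lacking TDP-43, or 0.410% to 1.67% of SG, with cells holding a read of the targeted gene included. They held 54.7% of all Tet1 UMIs of SG. Tet1 in SG ranged from 14.4 to 31.6 CPM across the 9 mice with these cells included. Their median depth was 31951 UMIs against 23728 in other SG. Of such SG 3.03% were among the highest 5% of doublet scores, against 4.66% of all cells with a cell type. The tool that gave these scores was judged not to have worked here, so whether some were doublets was not settled. A Tet1-high Sertoli cell was seen in 2 of the 9 mice, and Tet1 in Sertoli cells of control mouse 2 (36.2 CPM, others 9.05 to 11.2) rested on 124 UMIs in 2 cells.

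**Figure D2:**
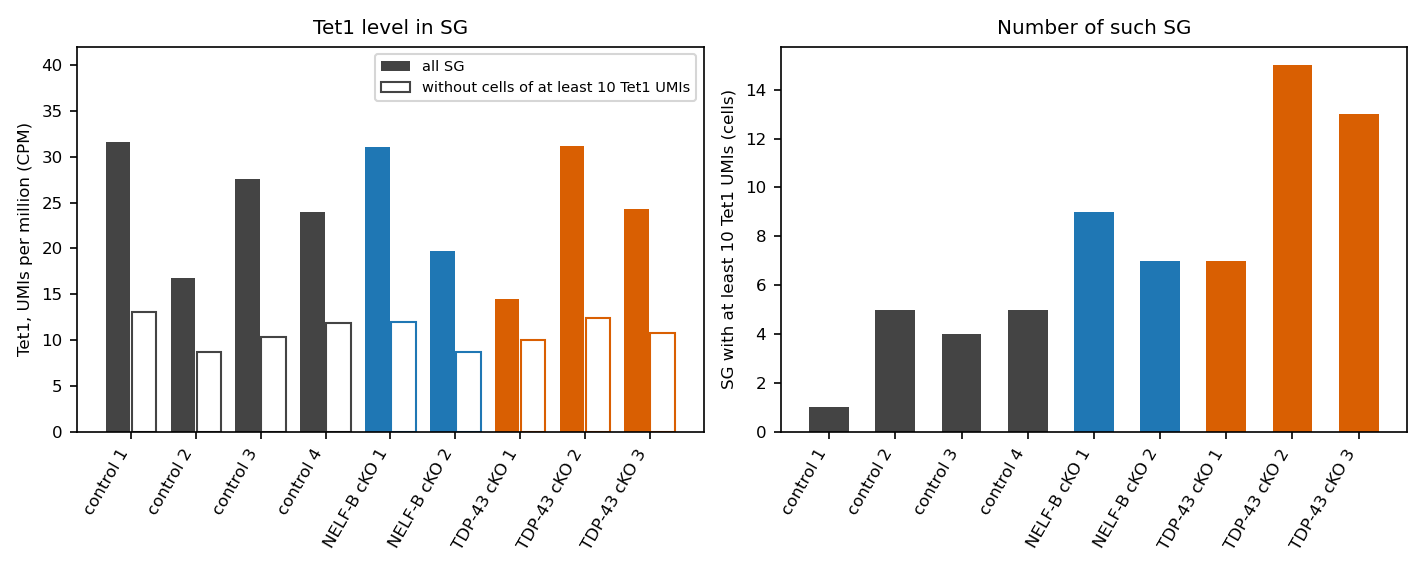
Left, Tet1 level in SG of each mouse (CPM, y axis from 0), with all SG (filled bars) and without SG that held at least 10 Tet1 UMIs (open bars); right, number of such SG per mouse. Grey is control, blue NELF-B cKO and orange TDP-43 cKO, and each bar is 1 mouse. Without those cells all 9 mice fall between 8.74 and 13.1 CPM. The cells left out were picked by their Tet1 count, so a lower level and a narrower spread follow from the choice itself.

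The comparison of cKO with control mice asked whether loss of either factor in germ cells changed the RNA of these enzymes. In early germ cells (SG with pL, L and Z SC, the population of the study's own test) none of the 8 genes was called in either genotype by edgeR. The background was low too, 0.148% of all genes in TDP-43 cKO and 0.0256% in NELF-B cKO. At the stricter limits of adjusted p under 0.01 and at least a 2-fold change, 0 of 8 were called in both. There 0.00511% of all genes, 1 of 19558, were called in each. The targeted gene is among the genes tested, and its fall follows from leaving out cells with a read of it. The study reported many more genes at those limits, with DESeq2, shrunken fold changes and its own cell groups. At an unadjusted p under 0.05 there were 0 of 8 in TDP-43 cKO (26.1% of all genes) and 3 of 8 in NELF-B cKO (Dnmt1, Tet3 and Dnmt3l; 15.5% of all genes). DESeq2 called 0 (14.4% of all genes) and 1 (4.8%). Calls were rarer than in the stage contrasts by far.

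The 1 gene was Dnmt1 in NELF-B cKO mice. Early germ cells held 142, 161, 154 and 131 CPM of Dnmt1 in control mice 1 to 4, 221 and 183 CPM in NELF-B cKO mice 1 and 2, and 143, 151 and 167 CPM in TDP-43 cKO mice 1 to 3. Both NELF-B cKO mice were above every control, while TDP-43 cKO mice overlapped them. The log2 fold change in NELF-B cKO was +0.44 (SE 0.10, adjusted p = 0.143 with edgeR, 0.00525 with DESeq2). Leaving out 1 mouse gave +0.30 to +0.54 (adjusted p 0.0588 to 0.303). Here and below, where 1 of 2 cKO mice is left out, the remaining one is assumed to vary like the mice of the other groups. With cells holding a UMI of Nelfb left out of the controls too the change was +0.82 (adjusted p = 0.0305), but this is no like-for-like comparison. It left 344 to 548 of the 765 to 1152 early germ cells of each control mouse and lowered the share of SG among them from 26.0% to 45.1% down to 13.5% to 31.3%. The change in TDP-43 cKO was +0.12 (SE 0.09, adjusted p = 0.462). In pL, L and Z SC alone Dnmt1 was 172 and 134 CPM in NELF-B cKO against 75.1 to 113 in controls (+0.68, SE 0.17, adjusted p = 0.110, DESeq2 0.0154). In SG the mice were at 265 and 204 CPM against 175 to 209, which overlapped (+0.27, SE 0.12, adjusted p = 0.366). The clusters of the pooled group differ in Dnmt1 by stage, from 182 CPM on average in pL SC to 17.9 in L and Z SC of controls, and in L and Z SC alone Dnmt1 was 23.1 and 18.8 CPM against 17.1 to 19.6. The makeup of the pool moved with the genotype. L and Z SC, with the least Dnmt1, were 10.9% and 18.7% of early germ cells in NELF-B cKO mice against 21.3% to 40.5% in controls, without overlap. Among pL, L and Z SC alone they were 16.9% and 37.4% against 31.3% to 57.1%, and pL SC 50.4% and 49.3% against 28.3% to 51.2%. The part of this makeup in the difference was not tested.

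The remaining 7 genes in early germ cells were not called in the fit of all 9 mice. In TDP-43 cKO the 95% intervals of the log2 fold change were -0.13 to 0.24 for Uhrf1, -0.04 to 0.28 for Dnmt3a, -0.19 to 0.47 for Dnmt3b and -0.17 to 0.30 for Tet3. In NELF-B cKO they were -0.27 to 0.15 for Uhrf1, -0.03 to 0.33 for Dnmt3a, -0.27 to 0.47 for Dnmt3b and 0.01 to 0.54 for Tet3. Tet1 (-0.52 to 0.61), Tet2 (-1.19 to 0.61) and Dnmt3l (-2.04 to -0.20) in NELF-B cKO were wider, the last on 25 UMIs in 2390 cells. Between TDP-43 and NELF-B cKO 0 of 8 were called (0.128% of all genes), 1 at an unadjusted p under 0.05 (Dnmt1, -0.32, SE 0.11, adjusted p = 0.205; 18.3% of all genes) and 0 by DESeq2 (5.24%).

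SG and pL, L and Z SC were also tested apart. In SG 0 of 8 were called in TDP-43 cKO (0.00553% of all genes called) and 0 in NELF-B cKO (0.0221%). An unadjusted p under 0.05 was found for 0 of 8 (19.7% of all genes) and 1 of 8 (13.2%), and DESeq2 called 0 in both (8.99% and 2.15% of all genes). In pL, L and Z SC 0 of 8 were called in TDP-43 cKO (1.42% of all genes) and 0 in NELF-B cKO (0.00645%). An unadjusted p under 0.05 was found for 1 of 8 (26.6% of all genes) and for 4 of 8 (Dnmt1, Tet1, Tet3 and Dnmt3l; 16.9%), and DESeq2 called 1 in each (14.1% and 5.58%). The gene in TDP-43 cKO was Tet2, at 5.85, 4.73 and 7.92 CPM against 1.56, 3.85, 2.29 and 2.11 in controls. The groups did not overlap, but the values rest on 94 and 72 UMIs (+1.37, SE 0.36, adjusted p = 0.0639 with edgeR and 0.0177 with DESeq2).

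L and Z SC, the latest stage with enough cells in every mouse, were tested after the levels had been seen. In TDP-43 cKO 1 of 7 tested genes was called, where 10.1% of all genes were. An unadjusted p under 0.05 was found for 2 of 7 (27.3% of all genes), and DESeq2 called the same 2, Tet2 and Tet3 (13.4%). The gene called by edgeR was Tet2, which stood at 5.65, 3.14 and 7.49 CPM in TDP-43 cKO mice 1 to 3, 2.64 and 4.69 CPM in the NELF-B cKO mice and 1.18, 1.31, 0.642 and 0.634 CPM in control mice 1 to 4. No cKO mouse overlapped a control, with 31 UMIs in TDP-43 cKO, 14 in NELF-B cKO and 12 in control mice. The log2 fold change was +2.54 in TDP-43 cKO (SE 0.56, adjusted p = 0.0188) and +1.89 in NELF-B cKO (SE 0.64, adjusted p = 0.132). The TDP-43 cKO call was lost without TDP-43 cKO mouse 3 (+2.15), control mouse 3 (+2.44) or control mouse 4 (+2.36). Free RNA held 8.13 to 16.6 CPM of Tet2 in TDP-43 cKO against 1.38 to 2.61 in controls, and its part in the difference was not tested.

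Tet3 in L and Z SC was 12.7, 22.9 and 25.8 CPM in TDP-43 cKO, 40.9 and 19.2 CPM in NELF-B cKO and 9.47, 14.4, 8.67 and 9.504 CPM in controls. NELF-B cKO mice stood above all controls, and TDP-43 cKO mouse 1 overlapped them. The changes were +1.05 (SE 0.33, adjusted p = 0.0666) and +1.41 (SE 0.36, adjusted p = 0.0625), neither called. The former was called without TDP-43 cKO mouse 1 (+1.27, adjusted p = 0.0439), and the latter without NELF-B cKO mouse 2 (+1.83, adjusted p = 0.0146), while without NELF-B cKO mouse 1 it was +0.77 (adjusted p = 0.248), both with a single NELF-B cKO mouse whose spread is taken from the other groups. In NELF-B cKO 0 of 7 genes were called (2.83% of all genes), 4 of them had an unadjusted p under 0.05 (20.1% of all genes), and DESeq2 called 1, Tet3 (5.28%). Free RNA of Tet3 was 54.2 to 70.0 CPM in TDP-43 cKO, 13.6 and 32.1 in NELF-B cKO mice 1 and 2, and 7.52 to 19.5 in controls. NELF-B cKO mouse 1, with the highest level in L and Z SC (40.9 CPM), thus had free RNA within the control range. The part of free RNA in these levels was not tested. Both cKO comparisons share the same control mice.

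Sertoli cells lie outside the germ line in which Stra8-iCre acts. Somatic cells of the cKO mice still carry the 1 null allele of the targeted gene, and the labels give no alleles for the controls. The part of this allele in somatic levels was not tested. In TDP-43 cKO 1 of 8 genes was called, with 3.34% of all genes called, and 2 of 8 (Tet3 and Dnmt3a) had an unadjusted p under 0.05 (33.7% of all genes). Tet3 stood at 104, 85.5 and 91.9 CPM in TDP-43 cKO mice 1 to 3, at 55.4 and 89.1 CPM in the NELF-B cKO mice and at 37.0, 54.0, 44.0 and 58.7 CPM in control mice 1 to 4. All TDP-43 cKO mice were above all controls, and the NELF-B cKO mice spanned both. The log2 fold change was +0.96 in TDP-43 cKO (SE 0.20, adjusted p = 0.0482) and +0.59 in NELF-B cKO (SE 0.23, adjusted p = 0.360), the latter +0.17 without NELF-B cKO mouse 2 (adjusted p = 0.892) and +0.85 without mouse 1 (adjusted p = 0.0618). The TDP-43 cKO call was lost when any 1 of the 7 mice was left out (+0.89 to +1.10, adjusted p 0.0740 to 0.160), with the replicate number as a block (adjusted p = 0.106) and with 2 other scalings (0.0507 and 0.0501). DESeq2 called it alone of the 8 (adjusted p = 0.000939), with 23.3% of all genes called.

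Sertoli cells differed in depth between genotypes. Their median UMIs per cell were 2083 to 2816 in control, 2402 and 3707 in NELF-B cKO and 6930.5 to 22982 in TDP-43 cKO mice. They came from 3 clusters, of which the deepest held 62.7% of Sertoli UMIs in controls, 74.4% in NELF-B cKO and 92.0% in TDP-43 cKO. Within the deepest cluster alone Tet3 was 107, 91.4 and 96.6 CPM in TDP-43 cKO, 73.3 and 89.5 in NELF-B cKO and 56.0, 72.3, 50.4 and 64.1 in controls. The cKO mice of both genotypes stood above all controls there, and also in the shallowest cluster (25.8 to 28.5 against 0 to 18.8 CPM, on 4 to 22 UMIs per mouse where any were counted). In the remaining cluster they overlapped, with NELF-B cKO mouse 1 (11.8 CPM, 2 UMIs) below every control (37.8 to 74.7) and TDP-43 cKO mouse 3 (57.4) below control mouse 4. Among cells of at least 5000 UMIs the TDP-43 cKO change was +0.83 (adjusted p = 0.0461). Free RNA of Tet3, given above, was higher in every TDP-43 cKO mouse than in any other, and its part was not tested.

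**Figure D3:**
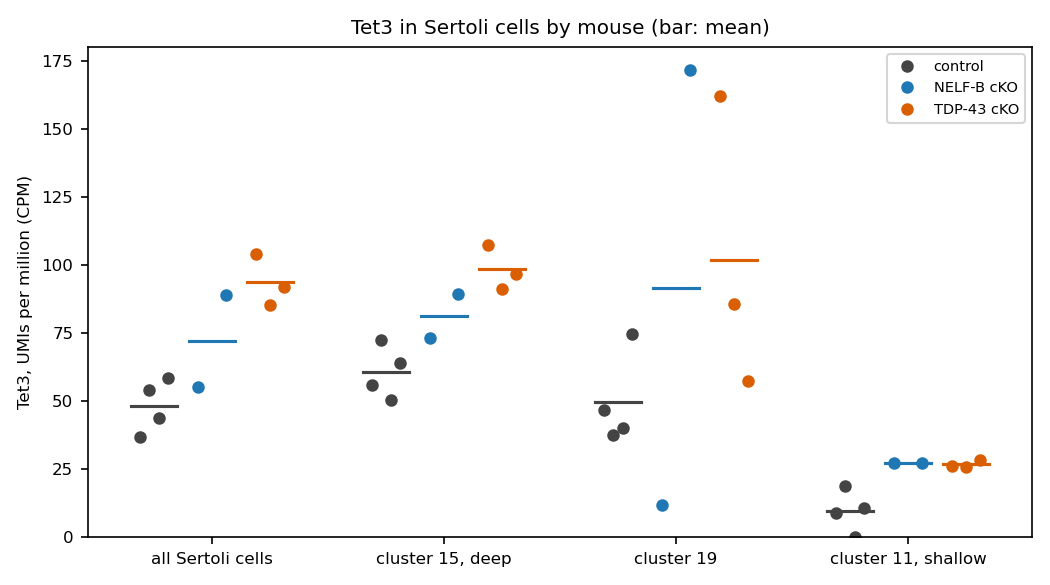
Tet3 in Sertoli cells (CPM, y axis from 0), all together and in each of the 3 Sertoli clusters. Points are mice and bars group means, with control in grey, NELF-B cKO in blue and TDP-43 cKO in orange. In the deepest cluster (15) all 5 cKO mice (73.3 to 107) are above the 4 controls (50.4 to 72.3), whereas in cluster 19 they overlap.

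Other members in Sertoli cells were not called. Dnmt3a was 105, 89.4 and 109 CPM in TDP-43 cKO against 69.1 to 87.7 in controls, without overlap (+0.37, SE 0.16, adjusted p = 0.131). In cells of at least 5000 UMIs the ranges did overlap, at 91.1 to 110 against 82.9 to 95.1 CPM. Uhrf1 was 6.23, 16.1 and 14.8 CPM against 16.5 to 36.5, also without overlap (-0.89, SE 0.47, adjusted p = 0.219). In cells of at least 5000 UMIs TDP-43 cKO mouse 2 (16.6 CPM) lay within the control range of 15.8 to 34.3 CPM. In NELF-B cKO 0 of 8 genes were called in Sertoli cells, where 0.0% of all genes were called, with 1 of 8 (Tet3) at an unadjusted p under 0.05 (12.8% of all genes) and 0 by DESeq2 (0.651%). Of the genes of demethylation and base excision repair, Gadd45a (+1.05, adjusted p = 0.0496) rose and Xrcc1 (-0.83, adjusted p = 0.0467) fell in TDP-43 cKO Sertoli cells, 2 of 14 tested, where 3.34% of all genes were called.

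Interstitial and Leydig cells gave no call of the genes tested, 6 and 7 of the 8, in either genotype. In interstitial cells 0.0% of all genes were called in TDP-43 cKO and 0.0% in NELF-B cKO, and 1 of the 6 genes in each passed an unadjusted p under 0.05 (17.7% and 4.01% of all genes). The former was Dnmt1 (+0.97, SE 0.29, adjusted p = 0.110) and the latter Uhrf1 (-0.75, SE 0.32, adjusted p = 0.923). In Leydig cells 0.0% of all genes were called in each genotype, and 1 of 7 genes in TDP-43 cKO (Dnmt1, +0.40, SE 0.13, adjusted p = 0.112) and 0 in NELF-B cKO passed an unadjusted p under 0.05 (19.2% and 9.64% of all genes). DESeq2 called 0 in all 4, with 5.76% and 0.0% of all genes in interstitial and 8.85% and 0.243% in Leydig cells. Dnmt1 in Leydig cells, where it was 39.4, 37.2 and 42.9 CPM in TDP-43 cKO against 28.9 to 33.3 in controls, did not overlap.

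**Figure D4:**
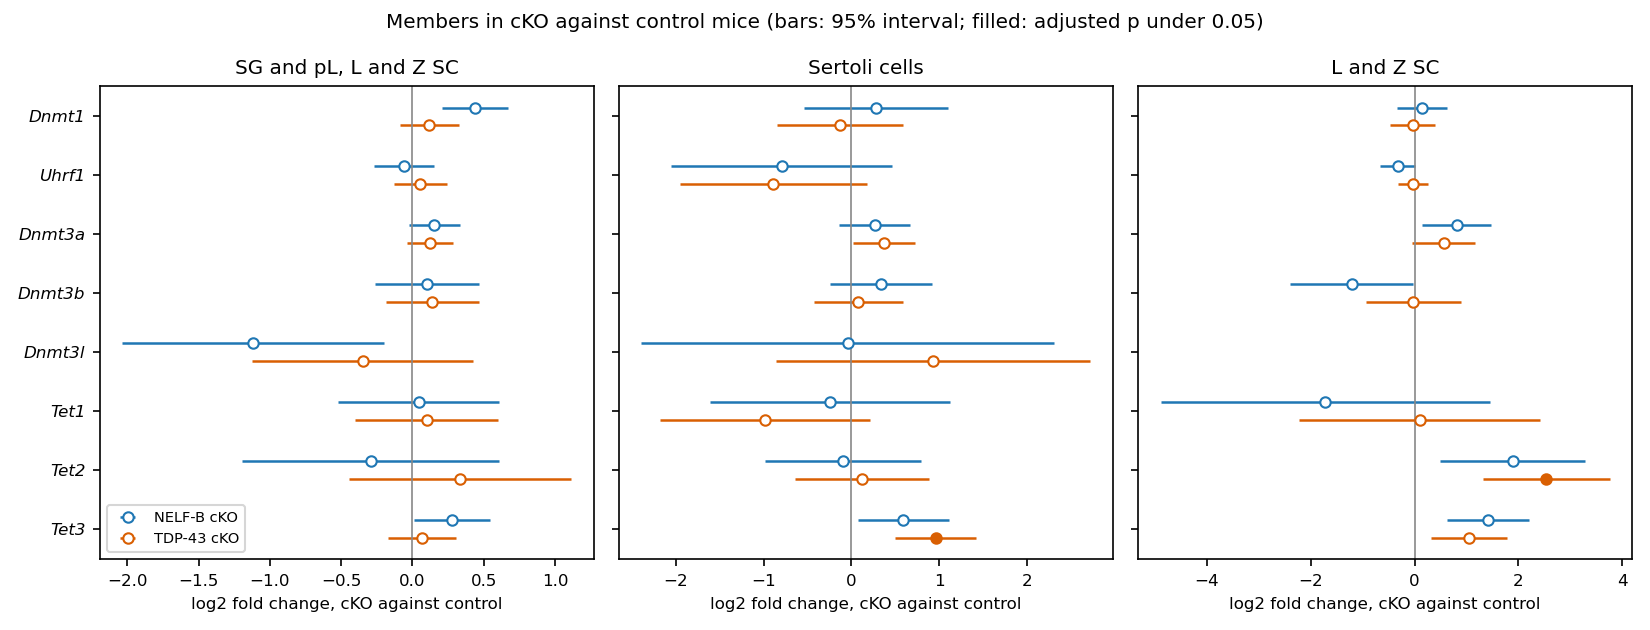
Log2 fold change (x axis) of each gene in NELF-B cKO (blue) and TDP-43 cKO (orange) against control mice in early germ cells, Sertoli cells and L and Z SC, with bars of the 95% interval and a scale of its own per panel. Filled points, adjusted p under 0.05, are Tet3 in Sertoli cells (+0.96) and Tet2 in L and Z SC (+2.54), both in TDP-43 cKO; Dnmt3l is not drawn in L and Z SC, where it did not pass the filter.

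The partner lists in early germ cells held no called gene in either genotype (0.148% of all genes called in TDP-43 cKO and 0.0256% in NELF-B cKO), among 14 replication genes, 8 maintenance partners, 14 guides, 16 repair genes, 7 readers and 6 genes of donor supply tested. The summed level of the 14 replication genes nonetheless stood at 1434 to 1481 CPM in TDP-43 cKO and 1477 to 1495 in NELF-B cKO, above the 1237 to 1265 CPM of controls, with median log2 fold changes of +0.33 and +0.23 against 0.01 and -0.02 over all genes. In TDP-43 cKO the sum was also above all controls in Leydig cells (535 to 759 against 347 to 461 CPM) and interstitial cells (510 to 669 against 391 to 483). In Sertoli cells it overlapped controls (309 to 401 against 350 to 468). In NELF-B cKO interstitial cells it was below all controls (347 and 365). The level differed by stage in controls, at 1341 to 1470 CPM in SG and 644 to 677 in L and Z SC, and L and Z SC were 7.67% to 22.9% of early germ cells in TDP-43 cKO mice, also lower than in most controls. In SG as a whole the sum was 1464 to 1592 CPM in TDP-43 cKO, which overlapped controls, and 1510 and 1596 in NELF-B cKO, which did not. In finer groups TDP-43 cKO mice stood above all controls throughout, at 1153 to 1184 against 952 to 1151 CPM in undifferentiated SG. The same held in differentiating SG (1698 to 1785 against 1515 to 1666) and pL SC (1550 to 1785 against 1409 to 1516). It also held in pL and L SC (1535 to 1589 against 1388 to 1442) and L and Z SC (698 to 796 against 644 to 677). Both NELF-B cKO mice did so in differentiating SG and in pL and L SC only. In L and Z SC of TDP-43 cKO Ogt, which binds TET proteins (+0.98, adjusted p = 0.00788), and Rrm2 (+0.97) were among the genes that rose, and Piwil2 (-0.61) and Mael (-0.56), both of the piRNA pathway, fell. These were 1 of 12 repair genes, 1 of 12 replication genes and 2 of 9 guides tested, where 10.1% of all genes were called. In NELF-B cKO Mael (-0.62) and the helicase subunit Mcm7 (-0.73) fell there, 1 of 9 guides and 1 of 12 replication genes, where 2.83% of all genes were called.

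P SC were also tested after the levels had been seen, with 2 mice per cKO genotype of at least 20 cells. P SC of NELF-B cKO mice 1 and 2 (379 cells) held 50.8 and 53.9 CPM of Uhrf1, both below the 62.9 to 75.0 CPM of controls (-0.41, SE 0.14, adjusted p = 0.442). P SC came from a deep cluster (median 57716.5 UMIs per cell) and a shallow one (median 3126). In the deep cluster alone the NELF-B cKO mice had 52.9 and 56.7 CPM against 66.3 to 76.9 in controls, and in the shallow one 36.8 and 28.6 against 28.9 to 51.6. Their Dnmt1 was 28.8 and 25.4 CPM against 28.7 to 32.9 (-0.22, SE 0.16, adjusted p = 0.797). Of 6 genes tested 0 were called (0.056% of all genes), 1 had an unadjusted p under 0.05 (Uhrf1; 8.03% of all genes) and DESeq2 called 0 (0.816%). Without NELF-B cKO mouse 1 there was 1 call, Tet2, which otherwise did not pass the filter on low counts and then rested on 7 UMIs in 1 mouse of 84 cells. In TDP-43 cKO 1 of 6 was called (15.8% of all genes), also the 1 gene at an unadjusted p under 0.05 (28.5%), and DESeq2 called 0 (19.1%). This was Uhrf1, at 56.3 and 48.0 CPM in TDP-43 cKO mice 2 and 3, on 21 UMIs in 87 cells (-0.91, SE 0.23, adjusted p = 0.0189). Of 363 TDP-43 cKO P SC, 87 remained once cells with a Tardbp read were left out, a step not applied to controls. The cells differed in depth and cluster between the groups, with a median of 2358.5 and 2598 UMIs per cell in these 2 mice against 4775 to 26171 in controls. The shallow cluster held 92.5% and 97.9% of their P SC against 38.7% to 58.7% in controls. There Uhrf1 was 33.9 and 19.8 CPM (4 and 3 UMIs) against 28.9 to 51.6 CPM, with mouse 2 inside the control range, while the deep cluster held 3 and 1 cells of these mice. The call was lost without either of these mice, with DESeq2 (adjusted p = 0.104) and with either other scaling (0.0581 with RLE factors, 0.379 with total UMIs), and with no cells left out the value was +0.08, so no direction is given for it.

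RS and D SC were not tested between genotypes. RS held 20.6 CPM of Dnmt3l in NELF-B cKO mouse 1 (210 cells) and 6.28 and 20.9 CPM in TDP-43 cKO mice 2 and 3, on 12 UMIs in 65 cells, against 20.7 to 24.2 CPM in controls.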

How the data were processed

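Single-cell RNA-seq of whole testes of 9 mice at PND24 was used, 1 library per mouse. The authors made UMI counts per gene and barcode with Cell Ranger on mm10, and the deposited matrices hold these counts unscaled; the submitters' processing notes name Cell Ranger 6.1.1 and 7.0.0, Seurat 4.2.0 and DESeq2 1.36. The filter kept barcodes that had over 1000 genes and a mitochondrial share of UMIs under 10%, and genes in over 15 cells. Cells were clustered with scanpy 1.11.5 (3000 variable genes, 40 components, 20 neighbours, leiden resolution 0.8), with 77 listed genes left out. Clusters were named from markers. Those with a median under 2000 UMIs, over 80% from 1 mouse, or another type scoring within 0.5 were left unnamed, limits set after the clusters were known. Scrublet called only 0.2083% of cells doublets and was judged not to have worked, so a test without the highest 5% of scores was added. For each cell type with at least 20 cells in a mouse, the counts of that mouse were summed.

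Sums were tested with edgeR 4.0.16 (quasi-likelihood, TMM factors, filterByExpr, R 4.3.3), genotypes in 1 fit of 9 mice and stages in 4 control mice with mouse as a block, with Benjamini-Hochberg adjustment over all genes. DESeq2 1.42.0 was an alternative. A call is an adjusted p under 0.05. Intervals use the t quantile at each gene's total degrees of freedom. Shares of genes called by DESeq2 are of all genes with a p. The procedure was tested on simulated data. In the genotype fits each mouse is 1 sample, so p-values measure the spread between mice. In the stage fits each mouse gives 1 sum per cell type. Those p-values measure the spread that remains between sums once mouse and cell type are fitted. All 8 genes were described in every comparison, list genes as counts with up to 2 per direction named (at the first 2 stage steps and for the genotypes, P SC left out), and for each gene the 3 most alike in pattern. The members and lists were chosen with earlier results of these data known. Promoter sequences come from RefSeq (GRCm38.p6) and positions from GENCODE M21. Results of 2 listed genes are not reported here.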

Additional observations from a re-analysis of the deposited data

Results flagged for a closer look

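Of 72 groups of 4 control mice, 3 held a mouse far from the others, and chance gives about 1 in 20. Uhrf1 in Sertoli cells was 36.5 CPM in control mouse 2 and 16.5 to 19.8 CPM in the others. Tet1 in the same cells of the same mouse was 36.2 CPM, against 9.05 to 11.2. Dnmt3l in immune cells was 2.28 CPM in control mouse 3, which is 1 UMI, and was listed at 0 in the others.

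Barcodes of 1 to 100 UMIs, which enter no comparison, held more RNA of several of the 8 genes in cKO than in control libraries. The lowest TDP-43 cKO mouse had 66.9 CPM of Dnmt1 (controls 23.5 to 52.2), 49.3 of Dnmt3a (9.53 to 20.8), 18.97 of Dnmt3b (5.77 to 12.2), 11.6 of Tet1 (0.752 to 3.52), 8.13 of Tet2 (1.38 to 2.61) and 54.2 of Tet3 (7.52 to 19.5). The lower NELF-B cKO mouse had 3.61 CPM of Tet1. Dnmt3l went the other way in TDP-43 cKO, at 2.82 to 3.39 CPM against 4.48 to 8.53 in controls, on 5 to 8 UMIs per TDP-43 cKO library, and Uhrf1 overlapped (34.9 to 67.7 against 27.6 to 60.5). The part of this RNA in the levels of whole cells was not tested.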

How the results depend on the processing

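Of 2292 values of single genes under alternatives 2082 kept their direction and side of the threshold, 29 lost a call, 33 gained one, 145 uncalled values changed sign and 3 reversed. The reversals were all of Uhrf1. With total UMIs it was -0.0766 for P SC against pL, L and Z SC and -0.46 for D against P SC, where that scaling moved the median of all genes by -0.37 and -0.50. With no cells left out it was 0.0765 for TDP-43 cKO against control P SC. Of 310 counts of called genes 274 stayed within 1.5 times, those that stayed at 0 included. Most genotype comparisons had a reported count of 0. The cause of the counts that moved was not tested. With DESeq2 the count was 1 in NELF-B cKO early germ cells, 1 in pL, L and Z SC of each genotype, and, in L and Z SC, 2 in TDP-43 cKO and 1 in NELF-B cKO. With no filter on low counts it was 1 in TDP-43 cKO pL, L and Z SC, 1 in TDP-43 cKO interstitial cells (Dnmt1), and 2 in L and Z SC of each genotype. It was 1 in TDP-43 cKO early germ cells at leiden resolution 1.2 (Dnmt3a), and 1 in NELF-B cKO early germ cells with cells holding the targeted gene left out of controls too (Dnmt1, +0.82), which also lowered the share of SG in controls. With no cells left out, L and Z SC gave 2 in TDP-43 cKO and 1 in NELF-B cKO, and total UMIs gave 1 in the latter. In TDP-43 cKO Sertoli cells it was 0 with RLE factors, 0 with total UMIs and 0 (lowest and highest) when any mouse was left out. In TDP-43 cKO P SC it was 0 with DESeq2, 0 with RLE factors, 0 with total UMIs and 0 with no cells left out. Leaving out 1 mouse gave 0 to 2 in L and Z SC and 0 to 1 in P SC of each genotype. A cKO group left with 1 mouse is assumed to vary like the others.

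Same-numbered mice deviated from their group means with r = -0.187, -0.114 and -0.00890 in the 3 pairs of TDP-43 cKO and control mice, and with r = 0.404 in both pairs of NELF-B cKO and control mice. With 2 mice per group the deviations are equal and opposite, so the second pair repeats the first. The labels name no shared litter or day, and the numbers were not taken as a pairing. With the replicate number as a block the count in TDP-43 cKO Sertoli cells was 0 (Tet3 +1.06, adjusted p = 0.106), and no other count of called genes changed.

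Over all genes edgeR and DESeq2 differed in counts of calls, higher and lower. In TDP-43 cKO early germ cells they called 20 and 9 against 832 and 1981, in NELF-B cKO 2 and 3 against 477 and 460, and in TDP-43 cKO Sertoli cells 294 and 219 against 1195 and 2380. Tet2 and Dnmt3l rest on few UMIs in early germ cells, which limits what could be detected for them.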
